A study of Mus musculus with 4 samples.

Results

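A set of 8 mouse genes was followed through hearts with checkpoint inhibitor myocarditis: 5 chemokines of monocytes and macrophages (Ccl2, Ccl7, Ccl8, Ccl12 and Ccl9), the receptor Ccr2, and the monocyte markers Ly6c2 and Plac8. They were taken by symbol from the 19465 genes of the count matrices, and 7 of the 8 were measured; Ly6c2 and its close paralog Ly6c1 were not analysed here. The assay was Visium, which reads RNA in barcoded spots laid over a tissue section and counts molecules as UMIs (unique molecular identifiers), here in 4 sections of formalin-fixed hearts in paraffin, 1 library each. A spot covers a small patch of tissue that can hold several cells of different types. All mice were wild type FVB/NJ, immunized with a peptide of MyHCα (the alpha heavy chain of cardiac myosin), and given antibodies against PD-1 and CTLA-4, 2 immune checkpoint inhibitors (ICIs). One group of 2 sections was given, in addition, a neutralizing antibody to IL-17A, and its myocarditis is labelled as mitigated. The other group of 2 sections received the ICIs alone, and the labels record myocarditis in it. Each group has a section of batch 1 and of batch 2, called replicate 1 and 2 below. No age is given, no heart without ICIs was analysed here, and the labels do not name the animal behind each section, so every p-value compares sections and may reflect technical spread.

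Monocytes leave the bone marrow and enter inflamed tissue along CCR2, the receptor for the ligands encoded by Ccl2, Ccl7 and, in the mouse, Ccl12. In the heart, monocytes that enter in this way can turn into CCR2+ macrophages, which differ from the long-lived resident macrophages of the muscle. Mouse Ccl8 encodes a related chemokine that acts mainly on CCR8, and Ccl9 encodes a ligand of CCR1 made by myeloid cells. Ly6c2 and Plac8 are transcribed strongly in classical monocytes, although neither is limited to them.

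The sections held 2604 and 2585 spots with the IL-17A antibody, against 2503 and 3052 with ICIs alone. Totals were 47882576 and 33005923 UMIs with the antibody, against 73167202 and 66255242 with ICIs alone. Levels are given as CPM scaled by TMM (UMIs scaled to an equal library total and corrected for composition). Fold changes are the antibody group over the ICI-alone group on the log2 scale. The tissue label was borne out by a list of 9 measured heart muscle genes, which summed to 87059.7 and 69029.6 CPM with the antibody, against 56804 and 31113 CPM with ICIs alone. Spots with over 1% of UMIs on 5 atrial genes numbered 2 and 172 with the antibody, against 63 and 536 with ICIs alone. When Nppa, which ventricles can also express, was left out of these genes, 163 such spots were found in antibody replicate 2 and 0 in the other 3 sections. Every CPM is a share of the section's RNA, so it moves with the share of muscle RNA too. In spots, fewer cells of a type and less RNA per cell cannot be told apart.

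Of the 5 chemokine genes, 4 lie close together on chromosome 11 (coordinates of GRCm38.p6, the assembly called mm10). Ccl2 (ENSMUSG00000035385) spans chr11:82035577-82037452 and Ccl7 (ENSMUSG00000035373) chr11:82045712-82047525. Ccl12 (ENSMUSG00000035352) spans chr11:82101845-82103399 and Ccl8 (ENSMUSG00000009185) chr11:82115185-82116799, so the 4 genes fit into 81.2 kilobases with Ccl11 between the 2 pairs. Ccl9 (ENSMUSG00000019122, chr11:83572917-83578636) begins 1456 kilobases past the end of Ccl8. Ccr2 (ENSMUSG00000049103) lies on chromosome 9, 124101918 to 124109140, and Plac8 (ENSMUSG00000029322) on chromosome 5, 100551589 to 100572253. The 250 bases before the start are shown for the 3 chemokine genes that fell outside the leukocyte-rich spots, from RefSeq on GRCm38.p6, written 5′ to 3′ along the gene. Capitals mark a TATA motif (TATAAAA on the gene's strand) in each, and in Ccl9 also an AP-1 motif (TGANTCA) and a kappaB motif. Ccl12 is chr11:82101595-82101844 on the plus strand, Ccl8 chr11:82114935-82115184 on the plus strand and Ccl9 chr11:83578637-83578886 on the minus strand.
Ccl12: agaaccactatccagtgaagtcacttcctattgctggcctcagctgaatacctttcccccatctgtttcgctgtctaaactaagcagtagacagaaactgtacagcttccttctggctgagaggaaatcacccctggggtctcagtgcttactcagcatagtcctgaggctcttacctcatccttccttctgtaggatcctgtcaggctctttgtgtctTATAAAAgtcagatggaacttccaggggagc
Ccl8: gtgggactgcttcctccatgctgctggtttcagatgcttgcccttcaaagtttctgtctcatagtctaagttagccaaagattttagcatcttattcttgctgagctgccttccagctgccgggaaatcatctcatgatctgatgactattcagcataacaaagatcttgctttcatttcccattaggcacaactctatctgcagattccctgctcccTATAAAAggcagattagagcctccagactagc
Ccl9: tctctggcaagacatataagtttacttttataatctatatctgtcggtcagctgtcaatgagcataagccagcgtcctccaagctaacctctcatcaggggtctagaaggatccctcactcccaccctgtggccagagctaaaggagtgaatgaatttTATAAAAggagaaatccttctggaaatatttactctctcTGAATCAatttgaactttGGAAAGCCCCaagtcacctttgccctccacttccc
The TATA motif begins 31 bases before the start in Ccl12 and 32 bases before it in Ccl8, against 92 bases in Ccl9. It is held by 3.02% of the 32851 mouse promoters of the same length. The kappaB motif, held by 7.25% of them on either strand, was found in Ccl9, 35 bases before the start, and not in the other 2 windows shown. An AP-1 motif, held by 6.75%, begins 53 bases before the start of Ccl9. These matches describe letters in the windows and are not evidence that a factor binds there.

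The first comparison asked how the genes differed in the whole section when IL-17A was neutralized. All 7 measured genes were lower in both antibody sections than in either ICI-alone section. Such separation towards lower values is common here, being seen in 32.2% of the 18817 genes tested. Ccl9 and Plac8 fell by the edgeR quasi-likelihood test with Benjamini-Hochberg adjustment, so 2 of 7 passed, beside 11.8% of all genes in either direction and 8.81% that fell. Over all genes 571 rose and 1658 fell, a split of 840 and 1029 when counts were scaled by library size alone. The median log2 fold change was -0.90 over the 7 genes and 0.09 over all genes.

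**Figure D1:**
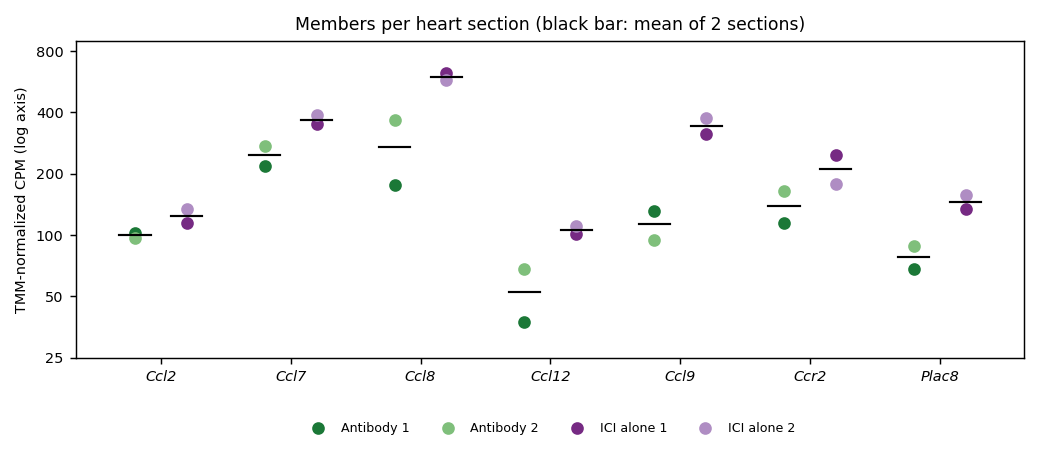
TMM-normalized CPM on a log axis for the 7 measured genes, 1 point per section and a bar at the mean of the 2 sections, with the antibody group left of the ICI-alone group. In every gene both antibody points lie below both ICI-alone points, most widely for Ccl9 and Ccl8, and the closest are those of Ccr2 and Ccl2.

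Ccl9 had 132 and 94.4 CPM with the antibody, against 313 and 377 CPM with ICIs alone. Its level with the antibody was 32.8% of that with ICIs alone, a log2 fold change of -1.61 ± 0.23 (SE, adjusted p = 0.0217, n = 2 sections each). Within the batches the log2 difference was -1.24 in batch 1 and -1.997 in batch 2. Plac8, which encodes a small cysteine-rich protein of leukocytes, had 68.3 and 88.0 CPM with the antibody, against 134 and 158 CPM with ICIs alone. Its log2 fold change was -0.90 ± 0.19 (adjusted p = 0.0328), with -0.97 in batch 1 and -0.84 in batch 2. These 2 calls rest on few sections: without antibody replicate 2 the edgeR adjusted p was 0.0593 for Ccl9 and 0.0576 for Plac8, and without antibody replicate 1 it was 0.144 for Plac8.

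Ccl8 had 176 and 368 CPM with the antibody, against 624 and 575 CPM with ICIs alone. The antibody sections differed from each other by more than the ICI-alone sections did, and the log2 difference was -1.83 in batch 1 and -0.65 in batch 2. The fitted fold change of -1.14 ± 0.35 did not pass (adjusted p = 0.0730), while with the batch as a replicate block it was -1.24 (edgeR adjusted p = 0.0430). Ccl12, its neighbour on the chromosome, had 37.6 and 67.9 CPM with the antibody, against 101 and 111 CPM with ICIs alone. Antibody replicate 1 was again the lowest section. The fold change of Ccl12, -1.01 ± 0.26, also stood just outside the threshold (adjusted p = 0.0517), with -1.42 in batch 1 and -0.71 in batch 2. It passed with the batch as a block (-1.06, edgeR adjusted p = 0.0212). In that blocked fit 3839 of 18817 genes passed, beside 2229 in the main test.

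Ccl2, the archetypal monocyte attractant, showed the smallest difference of the chemokines. It had 102 and 97.1 CPM with the antibody, against 115 and 134 CPM with ICIs alone (log2 fold change -0.32 ± 0.16, adjusted p = 0.191). The log2 difference was -0.17 in batch 1 and -0.46 in batch 2. Ccl7 encodes a chemokine that also binds CCR1 and CCR3, and had 218 and 274 CPM with the antibody, against 349.8 and 389 CPM with ICIs alone (-0.59 ± 0.21, adjusted p = 0.101). Its batches gave -0.68 and -0.50. Neither gene passed the test, and both kept antibody values below ICI-alone values.

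Ccr2, the receptor, had 114 and 164 CPM with the antibody, against 247 and 178 CPM with ICIs alone. The groups do not overlap, but the gap between antibody replicate 2 and ICI-alone replicate 2 was small, and the log2 difference was -1.11 in batch 1 and -0.12 in batch 2. The fitted fold change was -0.61 ± 0.25 (adjusted p = 0.128).

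Raw counts per spot are not corrected for depth, which was lower with the antibody. The median spot held 18342 and 12298 UMIs with the antibody, against 27912 and 20622.5 with ICIs alone. Ccl12 had 0.692 and 0.925 UMIs per spot with the antibody, against 2.69 and 2.48 with ICIs alone. Ccl8 had 3.23 and 5.01 UMIs per spot with the antibody, against 16.7 and 12.8 with ICIs alone. The highest single spot for Ccl9 held 80 and 30 UMIs with the antibody, against 190 and 128 with ICIs alone.

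The proportions between the chemokines differed between the sections as well. For each UMI of Ccl2 there were 1.72 and 3.79 UMIs of Ccl8 with the antibody, against 5.44 and 4.29 with ICIs alone. For Ccl9 there were 1.29 and 0.972 UMIs per UMI of Ccl2 with the antibody, against 2.72 and 2.81 with ICIs alone. The 2 groups are apart in both ratios, but the share of other gene ratios so separated was not computed. A panel of 10 macrophage genes summed to 1429 and 1867 CPM with the antibody, against 3048 and 3645 CPM with ICIs alone, and 7 of its 10 genes fell. Per 100 UMIs of that panel, Ccl2 had 7.16 and 5.20 UMIs with the antibody, against 3.77 and 3.68 with ICIs alone, so by this ratio Ccl2 was higher with the antibody in both sections. Ccl8 had 12.3 and 19.7 UMIs per 100 panel UMIs with the antibody, against 20.5 and 15.8 with ICIs alone, and here the groups overlap. Ccl9 had 9.24 and 5.06 with the antibody, against 10.3 and 10.3 with ICIs alone. These ratios were not tested, and for the panel ratios too the share of other genes so separated was not computed.

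Genes of some marker lists fell and those of others rose. Falls are to be read beside the 8.81% of all genes that fell, and rises beside the 571 of 18817 that rose. Of 14 classical monocyte genes tested, 12 fell and 0 rose (median log2 fold change -1.40), and their summed level was 859 and 774 CPM with the antibody, against 1870.2 and 3143 CPM with ICIs alone. Fn1 and Thbs1, which are on this list and which fibroblasts and other cells also transcribe, had log2 fold changes of -2.60 ± 0.48 and -1.76 ± 0.28 (adjusted p = 0.0254 and 0.0225). Of 10 non-classical monocyte genes, 1 fell and 0 rose (median log2 fold change -0.24). Their summed level was nonetheless higher with the antibody, at 2968 and 2059 CPM, against 1548 and 1080 CPM with ICIs alone. That sum lay mostly away from leukocytes, so it is not a measure of these monocytes. In the leukocyte-rich spots defined below it was 556 and 709 CPM with the antibody, against 538 and 502 CPM with ICIs alone. The other spots had 3295 and 2068 CPM with the antibody, against 1633 and 1295 CPM with ICIs alone. Of 13 neutrophil genes, 8 fell and 0 rose, with 104 and 147 CPM with the antibody, against 951 and 1402 CPM with ICIs alone. Of 11 resident macrophage genes, 2 fell and 0 rose, with 1021 and 1558 CPM with the antibody, against 2089 and 2213 CPM with ICIs alone. Of 12 fibroblast genes, 7 fell and 0 rose, and of 10 genes of lipid-handling macrophages 5 fell and 0 rose. The lipid-handling list summed to 8671 and 5783 CPM with the antibody, against 8941 and 9147 CPM with ICIs alone, so antibody replicate 1 was nearly level. In the other direction, 5 of 8 epicardial and mesothelial genes rose and 0 fell (median log2 fold change 1.59), with a summed level of 28.0 and 28.9 CPM with the antibody, against 11.2 and 19.0 CPM with ICIs alone. Of 8 genes of NK and cytotoxic lymphocytes, 2 rose and 0 fell, with 97.4 and 100.8 CPM with the antibody, against 85.4 and 65.8 CPM with ICIs alone. None of the 10 T cell genes passed the test, and that list summed to 146 and 142 CPM with the antibody, against 131 and 108 CPM with ICIs alone. On these lists 1 NK gene was at 0 in all 4 sections, and no other marker was. The part of these lists in the members' differences was not tested.

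The maps of Ccl2, Ccl8 and Ccl9 show that the chemokines do not share one pattern. Spots were sorted by a panel of 20 leukocyte genes that holds no member: after thinning to 5000 UMIs per spot, those with at least 32 panel UMIs were called leukocyte-rich. That threshold is the smallest that at most 10% of spots reach when sections are weighted equally. Leukocyte-rich spots numbered 193 and 80 with the antibody, against 254 and 553 with ICIs alone, or 7.72% and 3.14% of scored spots against 10.2% and 18.1%. Spots under 5000 UMIs (105 and 37 with the antibody, against 11 and 4 with ICIs alone) were in neither class.

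**Figure D2:**
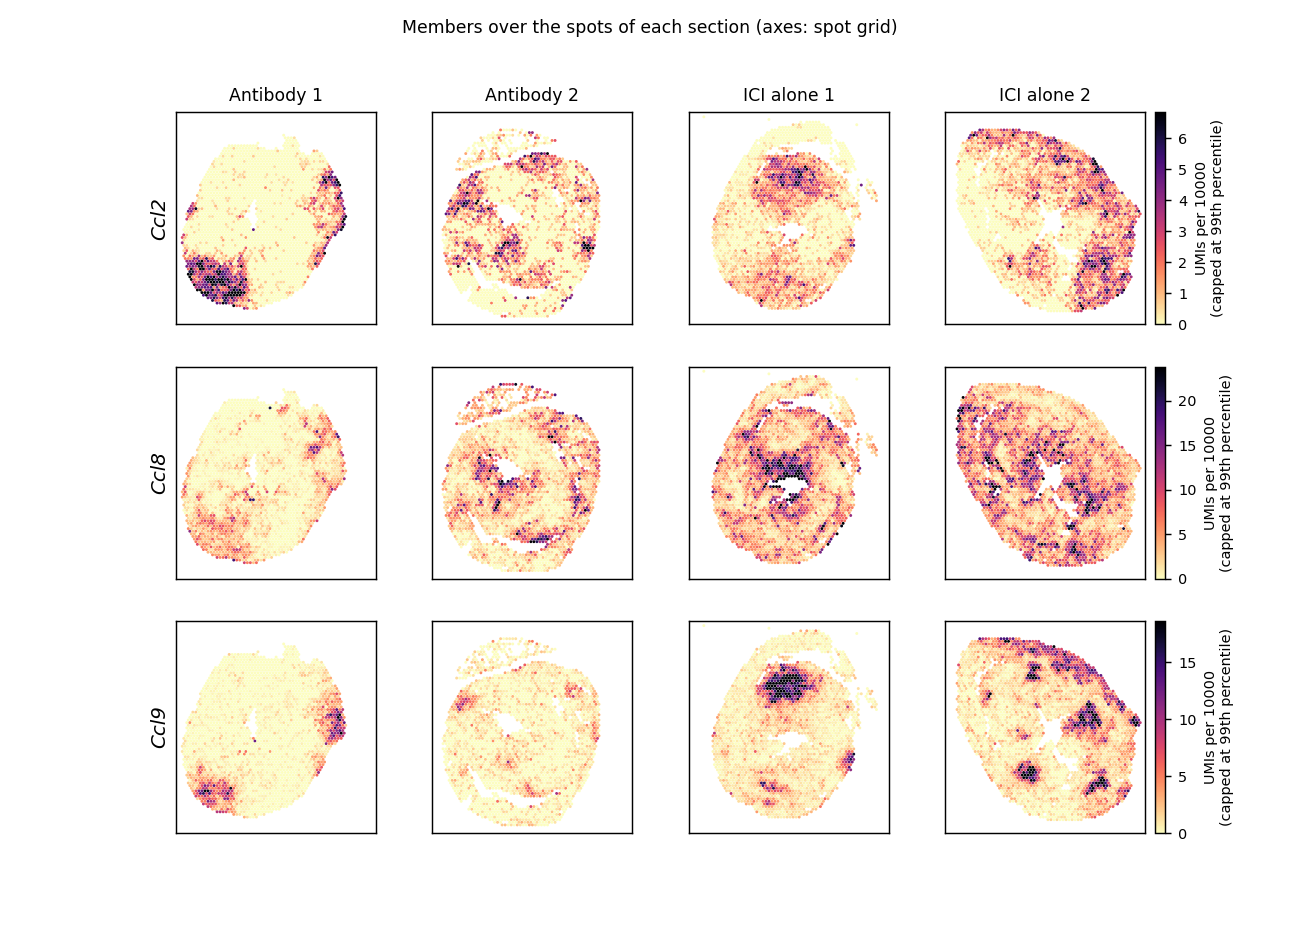
UMIs per 10000 of Ccl2, Ccl8 and Ccl9 (rows) in the spots under tissue of the 2 antibody sections (left) and the 2 ICI-alone sections (right), drawn on the spot grid with 1 colour scale per gene. Ccl9 is gathered in a few compact patches, Ccl2 in broader fields, and Ccl8 in the ICI-alone sections is spread over most of the section with pale areas where Ccl9 is dense.

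Leukocyte-rich spots were set against the other spots of the same sections, with the section as a block. By the edgeR test, 4 of 7 genes were higher in them, beside 21.6% of the 18389 genes tested that were higher and 45.5% that differed in either direction. Ccl9 stood furthest out. In leukocyte-rich spots it had 575 and 367 CPM with the antibody and 1235 and 980.5 CPM with ICIs alone, while in the other spots it had 85.8 and 86.5 CPM with the antibody and 195 and 227 CPM with ICIs alone. The difference was 2.40 ± 0.17 on the log2 scale (adjusted p = 1.52e-05, all 4 sections). Plac8 (1.13 ± 0.20, adjusted p = 0.00131), Ccl2 (0.85 ± 0.20, adjusted p = 0.00720) and Ccl7 (0.76 ± 0.21, adjusted p = 0.0145) were also higher there. Without ICI-alone replicate 1 the adjusted p of Ccl7 was 0.0930.

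Ccr2, the receptor, was not called. It had 143 and 239 CPM in leukocyte-rich spots with the antibody and 221 and 173 CPM with ICIs alone, while the other spots had 124 and 173 CPM with the antibody and 279.5 and 205.5 CPM with ICIs alone. The log2 difference between the classes was 0.02 ± 0.16 (adjusted p = 0.939). Ccl12 (-0.10 ± 0.17, adjusted p = 0.622) and Ccl8 (-0.13 ± 0.27, adjusted p = 0.705) did not pass either, and both estimates turned positive when counts were scaled by library size alone (0.23 and 0.21), which raised the median of all genes from 0.19 to 0.52.

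As a share of each gene's own UMIs, 48.6% (95% Wilson interval 47.4 to 49.8) and 19.4% (18.1 to 20.7) of Ccl9 lay in leukocyte-rich spots with the antibody. With ICIs alone it was 51.5% (50.8 to 52.2) and 59.5% (58.9 to 60.1). All genes together had 8.81% and 4.34% of UMIs there with the antibody, against 12.6% and 22.3% with ICIs alone. For Ccl8 the shares were 18.5% and 6.99% with the antibody, above the figure for all genes, against 9.11% and 15.9% with ICIs alone, below it. The intervals cover counting error only.

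Ccl8 was the member whose position differed with treatment. In leukocyte-rich spots it had 289.6 and 517 CPM with the antibody, against 436 and 399 CPM with ICIs alone. In the other spots it had 180.3 and 389.5 CPM with the antibody, against 728 and 718.5 CPM with ICIs alone. So it was higher in leukocyte-rich than in other spots of both antibody sections, and lower in those of both ICI-alone sections. The interaction of spot class and treatment was 1.34 ± 0.28 (edgeR adjusted p = 0.0435), and Ccl8 was the 1 member that passed, beside 1.17% of genes. The call was lost without either ICI-alone section, where 1 section is left in that group. It was also lost with a 20% threshold for the spot classes (edgeR adjusted p = 0.316). At that threshold only 10 of 18327 genes passed, so almost every gene lost its call. Over the 8 alternatives the Ccl8 estimate stayed between 1.14 and 1.78. Plac8 (0.92 ± 0.24, adjusted p = 0.0873) and Ccr2 (0.63 ± 0.24, adjusted p = 0.245) did not pass.

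The treatment comparison was then made within each class. Outside the leukocyte-rich spots 4 of 7 genes fell with the antibody, beside 10.5% of 18202 genes that changed and 7.87% that fell. These were Ccl8 (-1.31 ± 0.35, adjusted p = 0.0487), Ccl9 (-1.26 ± 0.18, adjusted p = 0.0168), Ccl12 (-1.09 ± 0.28, adjusted p = 0.0452) and Plac8 (-0.96 ± 0.22, adjusted p = 0.0342). With the batch as a replicate block 6 genes passed, but so did 5753 of the 18202 genes. The additional ones were Ccl7 (-0.55, edgeR adjusted p = 0.0113) and Ccr2 (-0.68, edgeR adjusted p = 0.0109). Without antibody replicate 1 none of the 4 passed (adjusted p from 0.156 to 0.170), and 0 of 7 passed with a 20% threshold. At that 20% threshold only 7 of 17255 genes passed, so almost every gene lost its call. Outside the leukocyte-rich spots of the main test, Ccl2 had 85.1 and 92.0 CPM with the antibody, against 90.5 and 127 CPM with ICIs alone. Its groups overlap (-0.30 ± 0.19, adjusted p = 0.306).

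Within leukocyte-rich spots 0 of 7 genes passed, and only 0.0382% of 13095 genes did, so this test made almost no calls. At an unadjusted p under 0.05 there were 3200 genes, and DESeq2 called 519 genes, 1 of the members among them. Ccl9 had 701 and 423 CPM in these spots with the antibody, against 1253 and 1085 CPM with ICIs alone (-1.05 ± 0.27, adjusted p = 0.0938). Ccl12 had 68.6 and 74.6 CPM with the antibody, against 107 and 97.0 CPM with ICIs alone (-0.52 ± 0.13, adjusted p = 0.0903). In both genes the groups did not overlap, but the share of all genes so separated in these spots was not computed. The groups overlap for Ccl2, Ccl7, Ccl8, Ccr2 and Plac8, with fold changes between -0.29 and 0.10. Plac8, at 234 and 281 CPM with the antibody, against 241 and 249 CPM with ICIs alone, was nearly level (0.07 ± 0.15, adjusted p = 0.817).

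**Figure D3:**
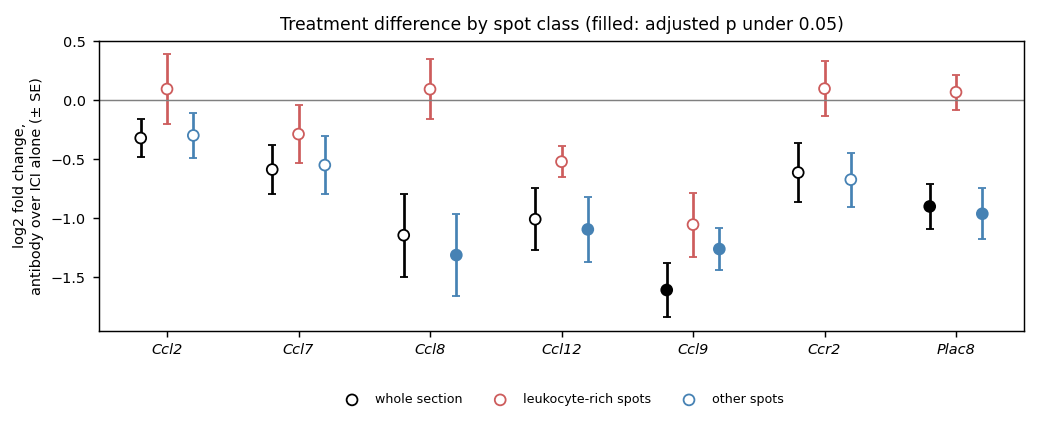
Log2 fold change with its SE for each measured gene, antibody over ICI alone, in whole sections, leukocyte-rich spots and other spots. Filled points passed the adjusted threshold of 0.05, which 2, 0 and 4 genes did. Ccl9, Ccl12 and Ccl7 lie below 0 in all 3, while Ccl8, Ccr2, Plac8 and Ccl2 lie near 0 in leukocyte-rich spots.

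Distance from the leukocyte-rich spots gave each gene a profile. Levels here are CPM of the summed ring, scaled by library size alone, and a ring is counted in steps on the hexagonal grid. Ccl9 was by far highest at step 0, with 732 and 449 CPM at step 0 with the antibody and 1170.4 and 1030 CPM with ICIs alone, and 375 and 228 CPM at the first step with the antibody against 397 and 388 CPM with ICIs alone. At 5 or more steps it had 24.6 and 57.5 CPM with the antibody and 88.7 and 104 CPM with ICIs alone. Plac8 was highest at step 0 or 1 in all 4 sections and lowest furthest out, at 9.66 and 37.9 CPM at 5 or more steps with the antibody and 49.2 and 51.8 CPM with ICIs alone.

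Ccl2 stayed high further out, except in ICI-alone replicate 1, where it declined from step 0 on. In the antibody sections it had 313 and 176 CPM at step 0 and 306 and 196 CPM at step 2, before reaching 17.8 and 55.4 CPM at 5 or more steps. With ICIs alone it had 239 and 176 CPM at step 0, 133 and 163 CPM at step 2, and 46.9 and 56.5 CPM at 5 or more steps. Ccr2 was highest 1 or 2 steps outside the leukocyte-rich spots. Its peaks were 280.0 and 338 CPM with the antibody at step 1, and 334 and 212 CPM with ICIs alone at step 2. Ccl12 had its peak at step 2 or 3 in every section, between 82.8 and 133 CPM.

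Ccl8 ran in opposite directions in the groups. With the antibody it had 368 and 633 CPM at step 0 and was lowest at 5 or more steps, at 88.3 and 312 CPM. With ICIs alone it was lowest at step 0, at 414 and 419 CPM, and had 761 and 664 CPM at step 3 and 496 and 729 CPM at 5 or more steps. These profiles describe 4 sections, and were not tested ring by ring.

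**Figure D4:**
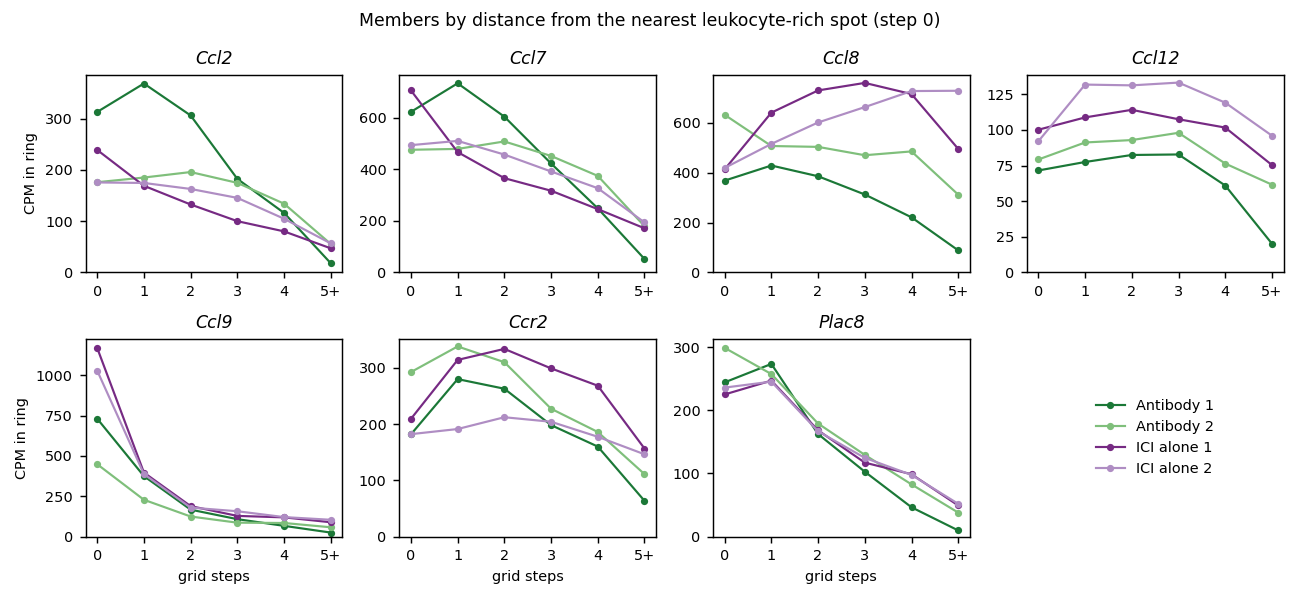
CPM of each measured gene in rings of spots by grid steps from the nearest leukocyte-rich spot (step 0) in the 2 antibody sections (greens) and the 2 ICI-alone sections (purples). Ccl9 is highest at step 0 in all 4 sections, Ccr2 peaks at step 1 or 2, and Ccl8 is lowest at step 0 in the ICI-alone sections alone.

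Spots rich in macrophage genes were separated from spots rich in T cell genes, leaving out spots that were both. The macrophage threshold was 24 UMIs and the T cell threshold 3 UMIs per 5000, so that counting noise weighs heavily in the second. Macrophage-only spots numbered 62 and 57 with the antibody, against 238 and 607 with ICIs alone, and T cell-only spots 181 and 164 with the antibody, against 92 and 59 with ICIs alone. Of the 7 genes 1 passed, beside 5.45% of 12020 genes. Ccl9 was higher in macrophage-only spots by 0.96 ± 0.18 on the log2 scale (edgeR adjusted p = 0.0201), with 732 and 254 CPM there with the antibody and 1030 and 873 CPM with ICIs alone, against 381 and 179 CPM in T cell-only spots with the antibody and 336 and 525 CPM with ICIs alone. The call was lost without ICI-alone replicate 1 (adjusted p = 0.185) or ICI-alone replicate 2 (0.0999). Plac8 and Ccr2 had estimates of -0.46 ± 0.13 and -0.45 ± 0.21, lower in macrophage-only spots, and did not pass (adjusted p = 0.0616 and 0.216).

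Position in the section by itself gave no calls. Edge spots, within 2 grid steps of a position not under tissue, made up 17.4% and 41.1% of spots with the antibody, against 30.4% and 28.2% with ICIs alone. None of the 7 genes differed between edge and interior by the edgeR test, and only 0.0733% of 16374 genes did (2148 at an unadjusted p under 0.05, and 203 by DESeq2). The estimates furthest from 0 were those of Ccr2 (0.39 ± 0.12, adjusted p = 0.291) and Ccl8 (0.33 ± 0.11, adjusted p = 0.310), both higher at the edge. In the authors' deposited table of spatial autocorrelation (Moran's I, near 0 for a scattered gene), Ccl7 had 0.755 and 0.517 with the antibody, against 0.647 and 0.604 with ICIs alone. Ccl12 had the lowest values of the 7 in that deposited table, 0.322 and 0.182 with the antibody, against 0.307 and 0.240 with ICIs alone. It also had the fewest UMIs of the 7 in every section, and the part of low counts in these values was not tested.

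The likeness of 2 genes was taken as Pearson's r across spots of log2(1 + UMIs per 10000), summed over a spot and its neighbours. Neighbourhoods overlap and all genes of a spot share its library and depth, so r is a description. Among 11032 genes, Ccl2 and Ccl7 were each other's best match, with a mean r of 0.89 over the 4 sections (0.84 to 0.94). Next to Ccl2 came Cxcl10, an interferon-induced chemokine (0.82), and B4galt5, a galactosyltransferase (0.82). Next to Ccl7 came Socs3, a feedback inhibitor of cytokine signalling (0.84), and Rnf19b, an E3 ubiquitin ligase (0.82). The nearest genes to Ccl9 were Lgals3, encoding galectin-3 (0.89), Ccl6, a neighbouring chemokine gene (0.89), and Fcgr2b, an inhibitory Fc receptor (0.88).

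Ccl8 and Ccr2 had other company. The genes nearest to Ccl8 were C3, the central complement component (0.72), C1qa, a chain of complement C1q made by macrophages (0.68), and Serpina3n, a protease inhibitor (0.67). Those nearest to Ccr2 were H2-Aa, an MHC class II chain (0.72), Aif1, a calcium-binding protein of macrophages (0.71), and Naaa, a lysosomal amidase (0.71). Plac8 was nearest to Actb, encoding beta-actin (0.86), Pfn1, encoding the actin-binding profilin (0.86), and Serpina3g (0.85). Ccl12 had the weakest best match, Ccl7 (0.65), ahead of Mt2, a metallothionein (0.61), and Ccl2 (0.59).

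**Figure D5:**
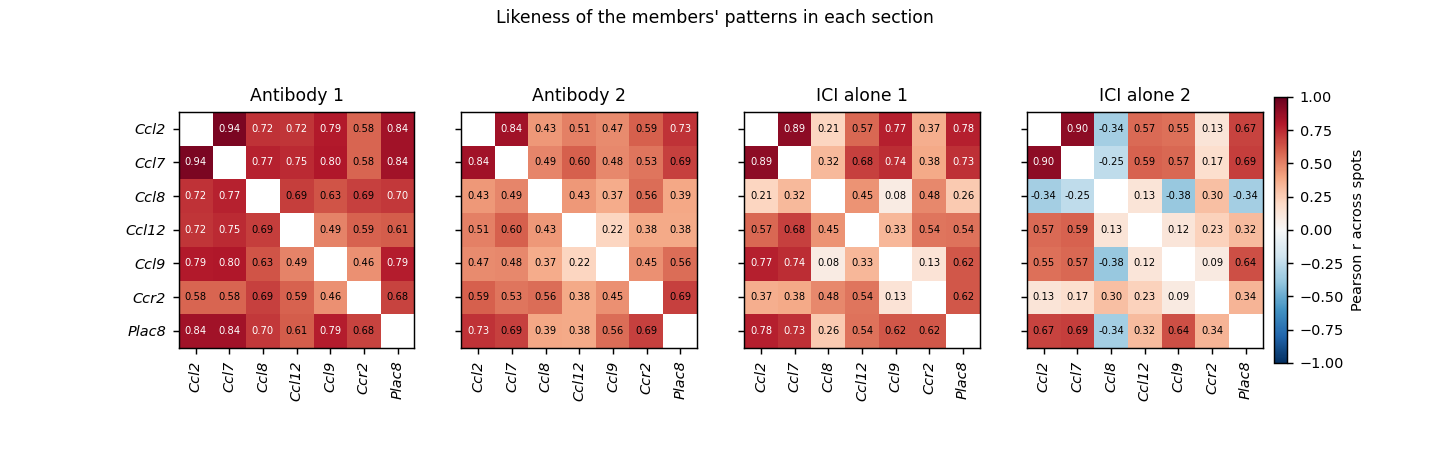
Pearson r across spots between each pair of the 7 measured genes, in 1 panel per section, the 2 antibody sections left and the 2 ICI-alone sections right. Ccl2 and Ccl7 stay between 0.84 and 0.94 in all panels, while the row of Ccl8 is positive throughout the antibody panels and holds negative values in ICI-alone replicate 2.

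The same measure set the members beside cell type lists. Ccl8 had an r with the summed resident macrophage list of 0.64 and 0.77 with the antibody, against 0.82 and 0.74 with ICIs alone. For Ccl9 those values were 0.12 and 0.12 with the antibody, against -0.05 and -0.22 with ICIs alone. With the classical monocyte list the order turned round: Ccl9 had 0.91 and 0.71 with the antibody, against 0.89 and 0.88 with ICIs alone, and Ccl8 had 0.68 and 0.55 with the antibody, against 0.26 and -0.32 with ICIs alone. That sum includes Fn1 and Thbs1, which other cells also transcribe. Ccl9 also had a mean r of 0.75 with the B and plasma cell list and 0.72 with the dendritic cell list. Between Ccl2 and Ccl8, genes of the same cluster, r was 0.72 and 0.43 with the antibody, against 0.21 and -0.34 with ICIs alone. For Ccr2, r with the T cell list was 0.74 and 0.72 in antibody sections, against 0.70 and 0.38 in ICI-alone sections. Its r with the classical monocyte list was 0.49 and 0.58 in antibody sections, against 0.35 and 0.25 in ICI-alone sections. Over the 4 sections that r averaged 0.42, below the 0.54 of Ccr2 with the dendritic cell list. With the resident macrophage and fibroblast lists the mean was 0.53 each. Plac8 was close to the T cell and classical monocyte lists and to several other leukocyte lists. Its mean r was 0.75 with the neutrophil list, 0.73 with dendritic cells and 0.72 with B and plasma cells. With resident macrophages its mean r was 0.09. Its r with T cells was 0.82 and 0.69 with the antibody, against 0.80 and 0.59 with ICIs alone, and with classical monocytes 0.84 and 0.78 with the antibody, against 0.78 and 0.77 with ICIs alone.

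The other genes of the pathway were read from 5 lists. Of 12 other CC chemokines tested, 1 rose and 2 fell in the whole section. Ccl17, a ligand of CCR4, had 99.9 and 46.4 CPM with the antibody, against 18.0 and 13.4 CPM with ICIs alone (log2 fold change 2.22 ± 0.35, adjusted p = 0.0225). Ccl6 had 489.99 and 311 CPM with the antibody, against 1357 and 1499.7 CPM with ICIs alone (-1.83 ± 0.31, adjusted p = 0.0229), and Ccl3, a ligand of CCR1, fell as well (-0.95 ± 0.23, adjusted p = 0.0443). Ccl11, which encodes eotaxin and lies between the pairs Ccl2 and Ccl7, and Ccl12 and Ccl8, had 45.0 and 26.1 CPM with the antibody, against 20.04 and 24.5 CPM with ICIs alone (0.68 ± 0.25, adjusted p = 0.110). It is thus a gene inside the cluster whose estimate was positive.

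Of 13 CC chemokine receptors and scavengers, 2 fell and 0 rose. Ccr1, the receptor for Ccl9, was one of those that fell. It had 5.74 and 3.64 CPM with the antibody, against 11.4 and 14.0 CPM with ICIs alone (-1.43 ± 0.25, adjusted p = 0.0242). For Ccr8, the receptor for mouse Ccl8, the estimate was 0.25 ± 0.30 (adjusted p = 0.555).

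Myeloid growth factors gave 1 rise and 3 falls among 9 genes. Csf1r, the receptor that macrophages need to survive, had 139 and 184 CPM with the antibody, against 269 and 318 CPM with ICIs alone (-0.87 ± 0.22, adjusted p = 0.0455). Il34, its second ligand, rose instead, with 8.31 and 9.15 CPM with the antibody, against 3.995 and 4.26 CPM with ICIs alone (1.08 ± 0.18, adjusted p = 0.0236). Csf3, encoding the neutrophil growth factor G-CSF, fell (adjusted p = 0.0211), with 6 and 3 UMIs in the antibody sections, against 99 and 248 UMIs with ICIs alone. Csf3r, its receptor, also fell (-1.84 ± 0.18, adjusted p = 0.0175).

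Among 23 genes known to induce monocyte chemokines or to relay that signal, 1 rose and 7 fell. Il6 had 19.6 and 10.4 CPM with the antibody, against 52.3 and 87.3 CPM with ICIs alone (-2.21 ± 0.35, adjusted p = 0.0225). Ifng, encoding interferon gamma, was the gene that rose, with 17.4 and 17.4 CPM with the antibody, against 8.75 and 7.75 CPM with ICIs alone (1.07 ± 0.16, adjusted p = 0.0219). The receptor genes Tlr2 (-0.93 ± 0.15, adjusted p = 0.0225) and Il1r1 (-1.23 ± 0.21, adjusted p = 0.0240) fell. Of 16 genes of leukocyte adhesion and passage through vessel walls, 6 fell and 0 rose, among them Itgam, an integrin chain of myeloid cells (-1.76 ± 0.27, adjusted p = 0.0225), Selp, encoding P-selectin (-1.33 ± 0.27, adjusted p = 0.0299), and Selplg, which encodes the selectin ligand PSGL-1 (-0.85 ± 0.16, adjusted p = 0.0262). The median log2 fold changes of these 5 lists, in the order given, were 0.24, 0.25, -0.45, -0.38 and -0.58, beside 0.09 over all genes.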

How the data were processed

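The authors deposited 1 matrix of raw UMI counts (genes by spots) for each section, made with Space Ranger 2.1.0 per the file headers. Per the submitters' processing notes, the genome build was mm10 and Seurat 5.1.0 was used, with no purpose stated. The probe set is not given. Of the authors' deposited table of Moran's I, a score of spatial autocorrelation that comes with adjusted p-values made by the authors, only the members' scores are printed. Sections were 5 μm thick, per the labels' protocols.

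UMIs were summed per section, or per section and spot class, then filtered (filterByExpr) and TMM-scaled. The main test was edgeR's quasi-likelihood test (edgeR 4.0.16 under R 4.3.3 with limma 3.58.1), adjusted by Benjamini-Hochberg over all genes tested at 0.05. The 11 repeated symbols were kept apart by gene ID. A standard error is the size of the log2 fold change over the root of F. Panel genes were left out of the tests that compare the spot classes they define, and those tests carry the section as a block. Spots were thinned with a fixed seed, and the script was tested on simulated counts. With 2 sections per group, p-values rest on few replicates. As a counting floor, 3 UMIs equal 0.0627 and 0.0909 CPM in the antibody sections, against 0.0410 and 0.0453 CPM with ICIs alone.

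The labels' batch number pairs sections across groups (correlation of same-batch deviations over 18817 genes 0.186). The blocked fit, DESeq2 1.42.0, library-size scaling, no filter, thinning to equal totals, atrial spots, other thresholds and edge widths, and leaving out each section were the alternatives. Members, lists and tests were chosen with earlier results of these data known. The genes named beside the members are up to 4 per pathway list with the smallest p past the threshold, at most 3 per cell type list, and the 3 most alike genes per member. Values of some genes that this rule names are not reported here. Ccl11 and Ccr8 were chosen after their values were seen. Promoter sequences came from RefSeq (GRCm38.p6), where Ccl2 and Ccl7 were not matched. Tables and plots were made in Python 3.11.15 (pandas 2.3.3, numpy 2.4.6, scipy 1.17.1, matplotlib 3.10.9).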

Additional observations from a re-analysis of the deposited data

Results flagged for a closer look

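Ccl8 differed between the treatments in where it lay, with an interaction of leukocyte-rich spots and treatment of 1.34 on the log2 scale (edgeR adjusted p = 0.0435). The mean log2 difference of leukocyte-rich over other spots was 0.55 with the antibody, against -0.79 with ICIs alone, and both sections of each group went the same way. Ccr2 showed the same opposite directions, with 0.34 with the antibody, against -0.29 with ICIs alone, but its interaction did not pass (edgeR adjusted p = 0.245). For 2 genes the difference of edge over interior was positive in both antibody sections and negative in both ICI-alone sections. Ccl9 had a mean log2 difference of edge over interior of 0.41 with the antibody, against -0.60 with ICIs alone, and Plac8 0.75 with the antibody, against -0.17 with ICIs alone. The 2 antibody sections gave 0.77 and 0.05 for Ccl9, so replicate 2 was nearly level. These 2 edge differences between the groups were not tested. Ccr2, Ccl9 and Plac8 were picked here for their opposite signs, and the share of all genes with such signs was not computed.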

How the results depend on the processing

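Over the 7 tests, 441 member values were recomputed under alternatives, of which 347 kept their direction and their side of the threshold, 20 lost a call, 28 gained one and 46 changed direction. In the whole section 0 of 77 changed direction, and the 2 calls became 4 with the batch as a replicate block and 5 with DESeq2. The block changed 2 calls there and 2 outside the leukocyte-rich spots, where 6 passed, and 0 within them. Outside the leukocyte-rich spots 4 calls became 1 with library-size scaling and 0 with a 20% threshold. Within them 0 calls became 1 with DESeq2 and 2 without a filter. The 1 interaction call became 2 with library-size scaling or a 5% threshold and 0 at 20%, and the 1 call between macrophage-rich and T cell-rich spots became 3 at 5%. Leaving out 1 section gave 1 to 5 calls in the whole section, 0 to 4 outside leukocyte-rich spots, 0 to 3 for the interaction and 0 to 3 between macrophage-rich and T cell-rich spots. A section left alone in its group was assumed to vary like the others.

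All values that changed direction were uncalled in the main test. Within leukocyte-rich spots they were Ccl2 -0.050, Ccl8 -0.057, Ccr2 -0.052 and Plac8 -0.080 without a filter, Ccl2 -0.040 at 5%, and Ccl8 -0.34, Ccr2 -0.024 and Plac8 -0.046 at 20%. Without single sections the ranges there were -0.46 to 0.36 for Ccl2, -0.41 to 0.38 for Ccl8, -0.34 to 0.36 for Ccr2 and -0.15 to 0.15 for Plac8. Between leukocyte-rich and other spots they were Ccr2 -0.00052 with DESeq2 and -0.35 at 5%, Ccl8 0.21 and Ccl12 0.23 with library-size scaling, and Ccl8 0.22 and Ccl12 0.19 at 20%. The ranges without single sections were -0.41 to 0.12 for Ccl8, -0.31 to 0.079 for Ccl12 and -0.14 to 0.13 for Ccr2. For the interaction they were Ccl9 -0.061 with DESeq2, and Ccl7 -0.15 and Ccl9 -0.078 at 5%, with ranges of -0.27 to 0.71 for Ccl2, -0.30 to 0.66 for Ccl7 and -0.31 to 0.34 for Ccl9. At the edge they were Ccl2 -0.037 and Ccl12 -0.0051 at 3 grid steps, with ranges of -0.30 to 0.20 for Ccl2, -0.25 to 0.10 for Ccl12, -0.43 to 0.15 for Ccl9 and -0.047 to 0.41 for Plac8. Between macrophage-rich and T cell-rich spots they were Ccl8 -0.068 at 5%, and Ccl2 0.19 and Ccl12 0.074 at 20%, with ranges of -0.25 to 0.011 for Ccl2, -0.047 to 0.33 for Ccl7, -0.071 to 0.54 for Ccl8 and -0.32 to 0.15 for Ccl12. The causes were not tested.

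Over all genes the whole-section calls ranged from 329 without antibody replicate 1 to 4479 without ICI-alone replicate 1, beside 2229 in the main test and 3839 with the block. Outside leukocyte-rich spots they ranged from 6 without antibody replicate 1 to 5753 with the block, beside 1919, and 7 passed at 20%. Within them they ranged from 0 without antibody replicate 1 to 707 without a filter, beside 5. For the interaction they ranged from 0 without either ICI-alone section to 1742 without antibody replicate 2, beside 216, for the edge from 4 to 342, beside 12, and between macrophage-rich and T cell-rich spots from 0 without ICI-alone replicate 1 to 1532 at 5%, beside 655. With library-size scaling the split of higher and lower genes was 327 and 505 outside leukocyte-rich spots (486 and 1433 in the main test), 145 and 27 within them (2 and 3), 7026 and 2939 between the classes (3968 and 4393), and 314 and 34 for the interaction (151 and 65). Ccl12 rests on 113 UMIs in the leukocyte-rich spots of antibody replicate 2 and on 40 in the macrophage-only spots of antibody replicate 1.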
